A study of Homo sapiens with 20 samples.

Results

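Syndecans 1 to 4 (SDC1, SDC2, SDC3, SDC4), the glypicans GPC1, GPC3, GPC4 and GPC6, and serglycin (SRGN) were followed through 20 arrays of a human mammary epithelial cell line. These 9 genes, of 19775 with a probe set of their own, are read by 19 of the 54675 probe sets in the table: 3 each for SDC2 and SRGN, 1 for SDC4 and 2 for each of the others. They were chosen by gene family, with no threshold, but after log2 changes on these same arrays were known (those of SRGN among them), so the calls below describe the size of a change against the spread between arrays and are not independent evidence that the family responds. The RNA is from the RAS-transformed line MCF10-T1k, called MII, grown with insulin, EGF, hydrocortisone and cholera toxin and transfected with siRNA by lipofection. The 5 groups of 4 biological replicates (A to D) received siRNA against APC and TAZ (siAPC/siTAZ), APC (siAPC), beta-catenin and TAZ (sibcat/siTAZ), beta-catenin (sibcat) or GFP as control (siGFP). All groups share the line and its RAS transformation, and no group received TAZ siRNA alone. APC helps to target beta-catenin for destruction, TAZ (gene WWTR1) is a coactivator of TEAD transcription factors, and the study asked, by its title, about TAZ downstream of Wnt.

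Proteoglycans are core proteins that carry long sulfated sugar chains. Syndecans span the plasma membrane and mainly carry heparan sulfate, glypicans are held on the outer face of the membrane by a lipid anchor and carry heparan sulfate, and serglycin is packed into secretory granules and is best known from blood cells. Heparan sulfate chains bind growth factors such as FGFs, VEGFA and Wnt ligands, and in mammary epithelium syndecan 1 is the typical epithelial syndecan. The chains are built by EXT enzymes, patterned by sulfotransferases and trimmed outside the cell by the sulfatases SULF1 and SULF2.

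SDC1, SDC2 and SDC4 changed after depletion of APC and after depletion of beta-catenin, and SRGN stood far above siGFP after both. SDC3 rose after sibcat at 1 of its 2 probe sets. Of the probe sets of GPC1, GPC3, GPC4 and GPC6 only 1, of GPC4, was called, by a small amount after sibcat. Of all probe sets 30.2% were called after siAPC and 26% after sibcat. SRGN was 19.3-fold higher in siAPC cells and 14.5-fold higher in sibcat cells than in siGFP cells, and with TAZ siRNA it dropped to or below its siGFP level. SDC1 and SDC4 were lower and SDC2 higher after each of these depletions. With TAZ siRNA GPC6 and SDC1 rose and SDC4 fell further. SDC2 then moved in opposite directions in the APC and beta-catenin backgrounds at 2 of its 3 probe sets. The groups with TAZ siRNA also had a deeper knockdown of APC or beta-catenin, given below, and the effects of these cannot be told apart. GPC3 showed no called change in any of the 8 comparisons.

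Each siRNA lowered its target at the probe set with the highest mean: APC by -0.88 ± 0.06 (log2 change, SE) in siAPC against siGFP cells, CTNNB1 (beta-catenin) by -1.34 ± 0.05 in sibcat against siGFP cells, and WWTR1 by -2.67 ± 0.06 in siAPC/siTAZ against siAPC cells and -2.21 ± 0.06 in sibcat/siTAZ against sibcat cells. CTNNB1 was further lowered in sibcat/siTAZ against sibcat cells (log2 change -1.41 ± 0.05), so that comparison also holds a deeper beta-catenin knockdown, and APC was likewise lower in siAPC/siTAZ than in siAPC cells (-0.46 ± 0.06). The TAZ/YAP target CCN2 changed by 3.27 and 2.80 after siAPC and sibcat against siGFP and by -6.76 and -7.35 with TAZ siRNA, and the Wnt target AXIN2 by 5.30 after siAPC and -0.50 after sibcat. Array medians lay between 5.07 and 5.11, precision is set by having 4 arrays a group, and 54613 probe sets were tested in each comparison. All values below are log2 signals or log2 differences, a change is called at a limma adjusted p under 0.05, and, since the labels call the replicates biological without naming separate cultures, each p-value is measured against the spread among these arrays alone. Of the mammary epithelial markers, 6 were measured (KRT5, KRT14, KRT18, KRT8, EPCAM and CDH1), and all 6 lay above the array medians in every group.

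**Figure D1:**
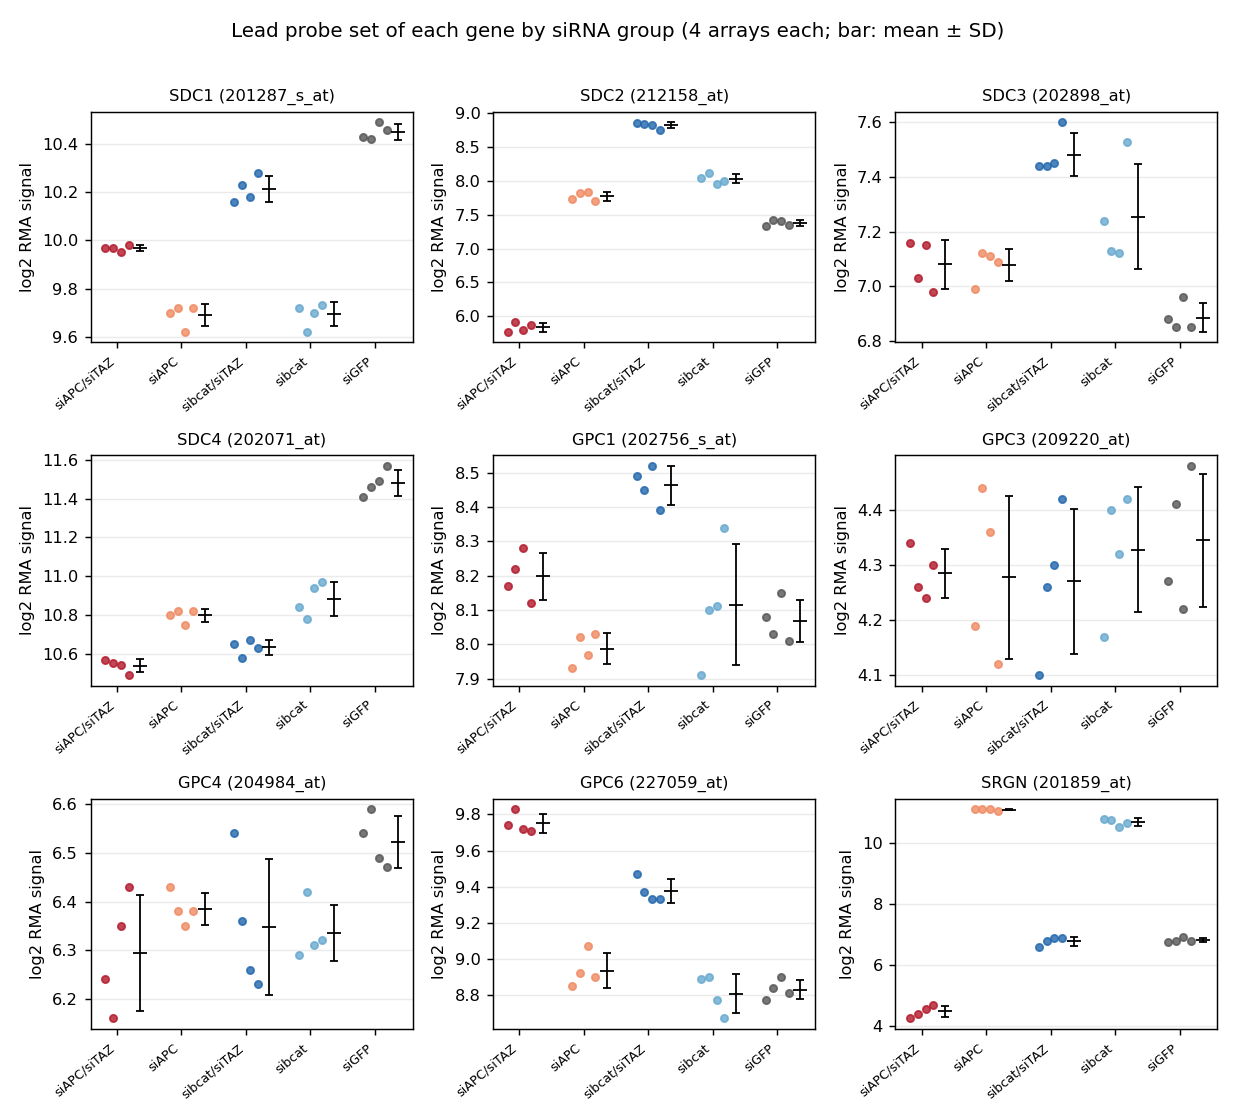
Log2 signal of the probe set with the highest mean for each of the 9 genes; points are the 4 arrays of a group (left to right siAPC/siTAZ, siAPC, sibcat/siTAZ, sibcat, siGFP) and bars the mean ± SD. The vertical scale differs between panels. SRGN spans 4.49 to 11.08 in group means, SDC2 5.84 to 8.82, and the GPC3 groups overlap.

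Upstream sequence was looked at for the 6 members with a window in the RefSeq table (GRCh38.p14), SDC1, SDC3, SDC4, GPC1, GPC4 and GPC6. The windows run from 250 bases before to 50 bases after a transcription start. SDC1 and SDC4 are shown because both fell after each depletion, with the bases before the start printed 5′ to 3′ on the gene's own strand and GC boxes (GGGCGG or its reverse complement) in capitals. The printed bases lie at chr2:20225476-20225725 (SDC1) and chr20:45348425-45348674 (SDC4), both on the minus strand of GRCh38.p14.
SDC1: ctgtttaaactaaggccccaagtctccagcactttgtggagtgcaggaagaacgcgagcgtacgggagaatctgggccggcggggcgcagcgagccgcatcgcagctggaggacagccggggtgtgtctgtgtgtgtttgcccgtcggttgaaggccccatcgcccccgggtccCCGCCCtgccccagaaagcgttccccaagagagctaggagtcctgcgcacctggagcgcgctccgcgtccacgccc
SDC4: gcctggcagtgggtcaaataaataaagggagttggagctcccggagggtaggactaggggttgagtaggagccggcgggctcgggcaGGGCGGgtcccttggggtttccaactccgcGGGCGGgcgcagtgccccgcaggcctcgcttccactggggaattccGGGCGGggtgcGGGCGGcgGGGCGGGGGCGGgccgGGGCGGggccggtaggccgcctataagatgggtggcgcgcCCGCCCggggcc
None of the 6 windows held the TEAD core CATTCC, the TCF/LEF core CTTTGAT or the AP-1 core TGANTCA on either strand, against 14%, 2.64% and 7.76% of 27305 windows, 1 per gene symbol. The GC box, a motif chosen after these searches found nothing, occurred 1 time in the SDC1 window and 8 times in the SDC4 window. It also occurred 6 times in the SDC3, 4 times in the GPC1, 2 times in the GPC4 and 0 times in the GPC6 window. Of all windows 44.6% held at least 1. These are matches of letters only. In the same RefSeq build the gene bodies lie at chr2:20200797-20225475 (SDC1), chr20:45325288-45348424 (SDC4), chr1:30869466-30909735 (SDC3), chr2:240435663-240468076 (GPC1), chr13:93216529-94408020 (GPC6) and chr10:69087603-69104811 (SRGN), and GPC3 and GPC4 are on chromosome X.

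Syndecan 1 and syndecan 4 fell after both depletions. SDC1, an epithelial co-receptor for growth factors and matrix, had signals of 9.70, 9.72, 9.62 and 9.72 in siAPC cells, against 10.43, 10.42, 10.49 and 10.46 in siGFP cells (probe set 201287_s_at). In sibcat cells the same probe set read 9.72, 9.62, 9.70 and 9.73. All arrays of both depletions lay below all siGFP arrays. The change was -0.76 ± 0.04 after siAPC (limma adjusted p = 1.4e-11) and -0.76 ± 0.04 after sibcat (adjusted p = 2.5e-11), both against siGFP. The other SDC1 probe set, 201286_at, gave -0.93 and -0.95. Between siAPC and sibcat cells SDC1 differed by 0.00 at 201287_s_at (95% interval -0.09 to 0.09), which bounds a difference rather than showing that there is none.

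SDC4, a syndecan of focal adhesions with a single probe set, read 10.80, 10.82, 10.75 and 10.82 in siAPC cells and 10.84, 10.78, 10.94 and 10.97 in sibcat cells, against 11.41, 11.46, 11.49 and 11.57 in siGFP cells. Neither depleted group overlapped siGFP. The changes were -0.69 ± 0.05 (adjusted p = 5.8e-10) and -0.60 ± 0.05 (adjusted p = 7.1e-09). Both comparisons use the same siGFP arrays, so their likeness is not a separate result.

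SDC1 and SDC4 moved in opposite directions in the groups with added TAZ siRNA. The deeper APC or beta-catenin knockdown in those groups cannot be told apart from the part of TAZ siRNA. SDC1 read 9.97, 9.97, 9.95 and 9.98 in siAPC/siTAZ cells and 10.16, 10.23, 10.18 and 10.28 in sibcat/siTAZ cells, above every array of the matching depletion without TAZ siRNA and below every siGFP array. It rose by 0.28 ± 0.04 in the APC background (adjusted p = 2.2e-05) and by 0.52 ± 0.04 in the beta-catenin background (adjusted p = 8.2e-09). The rise was smaller in the APC background by 0.24 ± 0.06 (difference of the log2 changes -0.24, adjusted p = 0.0063), and the second SDC1 probe set gave -0.23 (adjusted p = 0.015). SDC4 read 10.57, 10.55, 10.54 and 10.49 in siAPC/siTAZ cells and 10.65, 10.58, 10.67 and 10.63 in sibcat/siTAZ cells. These were its lowest groups, at -0.26 ± 0.05 against siAPC (adjusted p = 0.00021) and -0.25 ± 0.05 against sibcat (adjusted p = 0.00058). The TAZ siRNA effect on SDC4 differed between backgrounds by -0.01 (95% interval -0.15 to 0.13).

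Syndecan 2, the syndecan more typical of mesenchymal cells, rose after both depletions at each of its 3 probe sets. At the brightest, 212158_at, signals were 7.74, 7.82, 7.84 and 7.70 in siAPC cells and 8.05, 8.12, 7.96 and 8.0 in sibcat cells, against 7.33, 7.42, 7.41 and 7.35 in siGFP cells. No array of a depleted group reached down to siGFP. The changes were 0.40 ± 0.05 (adjusted p = 2.0e-06) and 0.65 ± 0.05 (adjusted p = 2.5e-09), and the other probe sets gave 0.72 and 0.46 for siAPC and 0.84 and 0.45 for sibcat. SDC2 was 0.26 ± 0.05 lower in siAPC than in sibcat cells at 212158_at (log2 difference -0.26, adjusted p = 0.00045), but the other 2 probe sets were not called in that comparison (-0.12 and 0.01).

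SDC2 split by background when TAZ siRNA was added. At 212158_at the arrays read 5.77, 5.91, 5.80 and 5.87 in siAPC/siTAZ cells, below all siGFP arrays, and 8.86, 8.84, 8.83 and 8.76 in sibcat/siTAZ cells, above all other groups. The change was -1.94 ± 0.05 against siAPC (adjusted p = 6.2e-17) and 0.79 ± 0.05 against sibcat (adjusted p = 1.4e-10). The difference between these effects was -2.73 ± 0.07 (adjusted p = 3.2e-15). All 3 probe sets were called for that difference and in the same direction, at -2.73, -1.21 and -0.80, and all 3 fell with TAZ siRNA in the APC background. CTNNB1 also fell further in sibcat/siTAZ against sibcat cells, and APC in siAPC/siTAZ against siAPC cells. The part of TAZ siRNA in the SDC2 difference cannot be told apart from that of the deeper knockdown.

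The SDC2 probe sets did not tell the same story against the control. In siAPC/siTAZ cells 212158_at and 212157_at were below siGFP (-1.54 ± 0.05 and -0.43 ± 0.09), whereas 212154_at was above it at 0.36 ± 0.06, and all 3 differences were called. In sibcat/siTAZ cells the probe sets 212158_at and 212154_at were 1.45 and 1.69 above siGFP and 212157_at 0.35 above. Against sibcat, 212157_at was not called (-0.10 ± 0.09, adjusted p = 0.49) while the other 2 rose. Whether SDC2 RNA ends below or above the control in siAPC/siTAZ cells therefore depends on the probe set. As a measure of RNA integrity, the ACTB 3′ minus 5′ signal averaged 1.99 ± 0.08 in siAPC/siTAZ, 1.56 ± 0.03 in siAPC, 2.04 ± 0.06 in sibcat/siTAZ, 1.81 ± 0.05 in sibcat and 1.83 ± 0.06 in siGFP cells (log2, SD, n = 4). It was highest in the groups with TAZ siRNA, and its part in the split between the SDC2 probe sets was not tested.

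**Figure D2:**
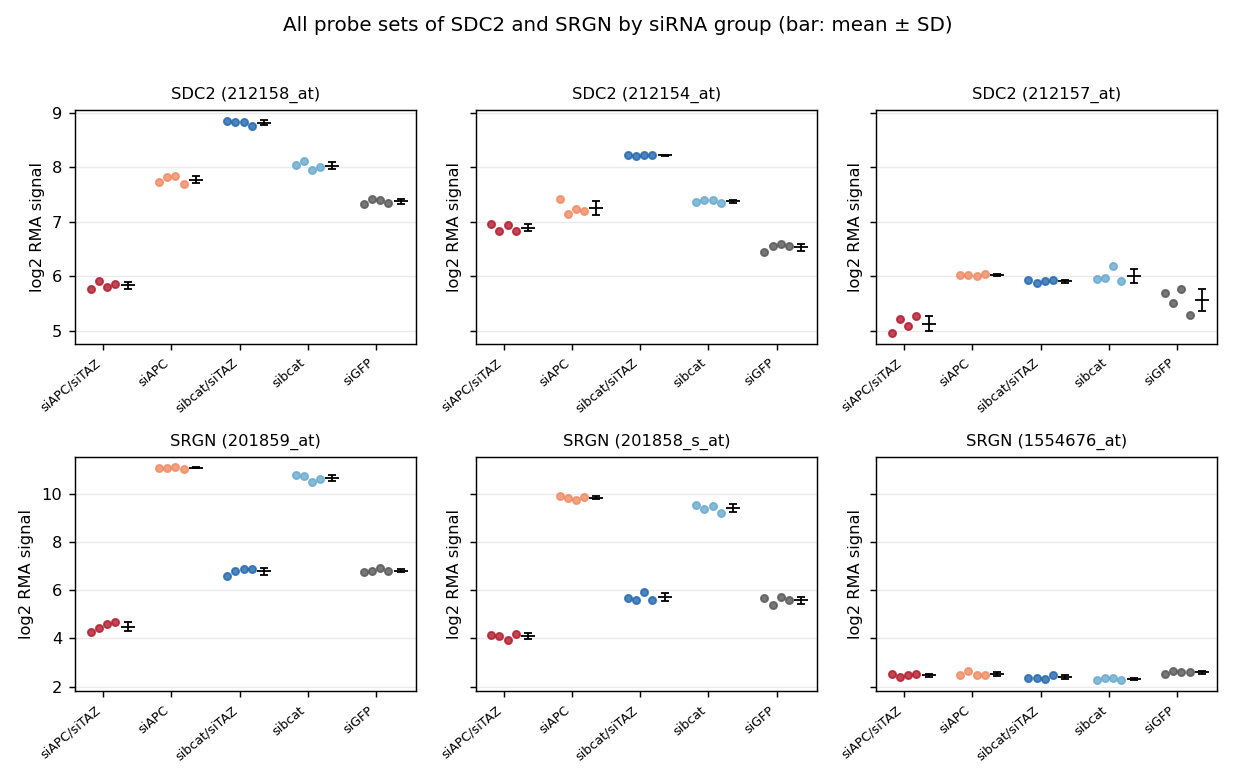
Log2 signal of the 3 probe sets of SDC2 (top) and SRGN (bottom) on each array, with group mean ± SD; groups run left to right as siAPC/siTAZ, siAPC, sibcat/siTAZ, sibcat, siGFP. For SDC2 the siAPC/siTAZ arrays lie below siGFP at 212158_at and 212157_at and above it at 212154_at. SRGN probe set 1554676_at stays between 2.27 and 2.66 on all arrays while the other 2 move together.

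Syndecan 3, known mainly from the nervous system, rose against siGFP at 1 of its 2 probe sets, most in sibcat/siTAZ cells. At 202898_at the signals were 7.24, 7.13, 7.12 and 7.53 in sibcat cells, against 6.88, 6.85, 6.96 and 6.85 in siGFP cells, a rise of 0.37 ± 0.07 (adjusted p = 0.00067). The siAPC arrays (6.99, 7.12, 7.11 and 7.09) also lay above siGFP, with a change of 0.19 ± 0.07 that was not called (adjusted p = 0.059). In sibcat/siTAZ cells it read 7.44, 7.44, 7.45 and 7.60, which was 0.60 ± 0.07 above siGFP (adjusted p = 1.7e-06). The further step over sibcat, 0.23 ± 0.07 (adjusted p = 0.032), was lost without replicate A, B or C of sibcat or replicate D of sibcat/siTAZ (adjusted p between 0.067 and 0.12). The second SDC3 probe set, 1554864_a_at, lay near the array medians (group means 4.86 to 5.16) and was called once, at -0.26 for siAPC against sibcat (adjusted p = 0.025), a call lost without siAPC replicate A or C or sibcat replicate C or D (adjusted p between 0.073 and 0.11).

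**Figure D3:**
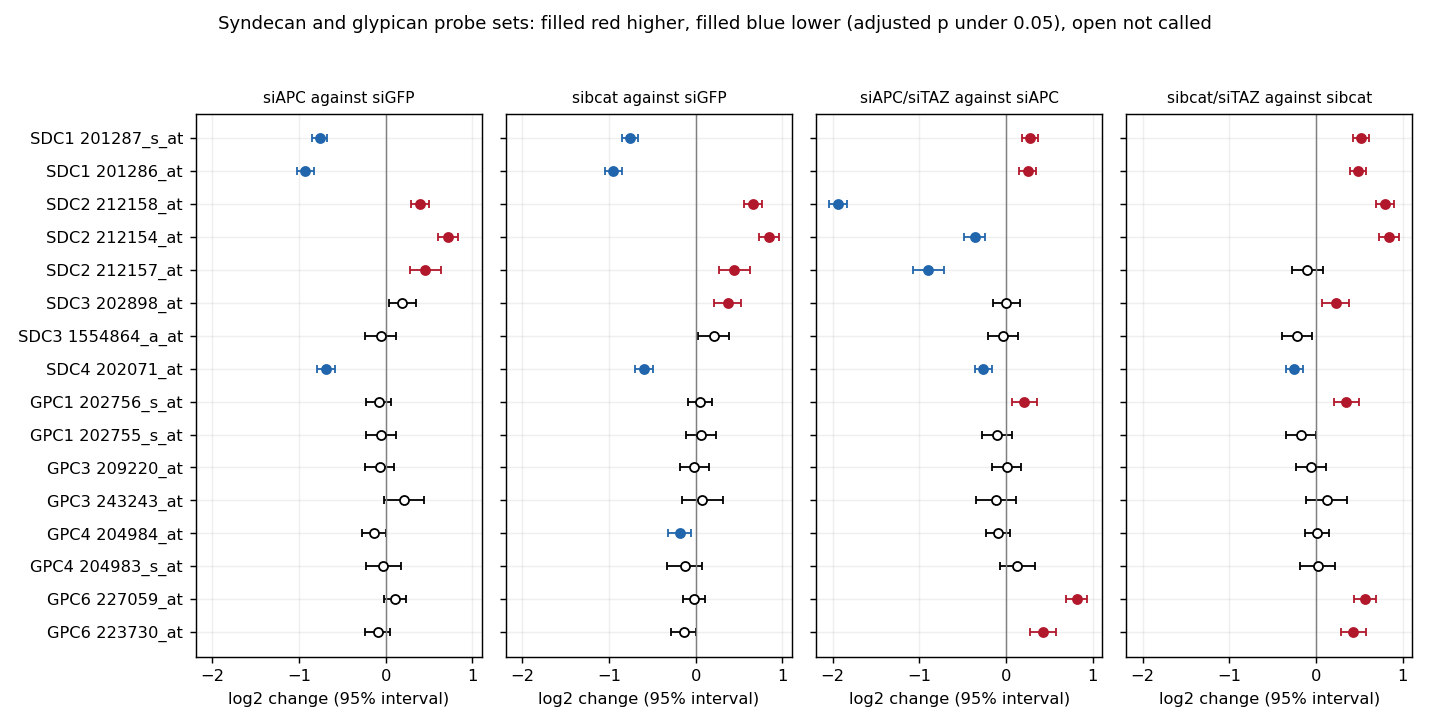
Log2 change with its 95% interval for the 16 syndecan and glypican probe sets in 4 comparisons; filled red points were called higher, filled blue points lower, open points not called. Both SDC1 probe sets and SDC4 lie left of 0 in the first 2 panels, both GPC6 probe sets lie right of 0 in the last 2, and the SDC2 probe sets change sides between the last 2 panels except 212157_at.

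Among the glypicans, GPC6 rose with TAZ siRNA in both backgrounds and was not called after either depletion without it. GPC6, a glypican of developing bone and cartilage, read 9.74, 9.83, 9.72 and 9.71 in siAPC/siTAZ cells, against 8.85, 8.92, 9.07 and 8.90 in siAPC cells (227059_at). It read 9.47, 9.37, 9.33 and 9.33 in sibcat/siTAZ cells, against 8.89, 8.90, 8.77 and 8.67 in sibcat cells, and 8.77, 8.84, 8.90 and 8.81 in siGFP cells. Both groups with TAZ siRNA stood above all other arrays. The rises were 0.81 ± 0.06 (adjusted p = 6.8e-10) and 0.57 ± 0.06 (adjusted p = 3.1e-07), and 223730_at gave 0.43 ± 0.07 in both backgrounds. Without TAZ siRNA the changes against siGFP were 0.10 (siAPC, 95% interval -0.02 to 0.23) and -0.02 (sibcat, -0.15 to 0.10). The larger rise in the APC background, by 0.25 ± 0.08 (adjusted p = 0.047), was lost when any of 16 of the 20 arrays was left out (adjusted p between 0.05 and 0.1) and was not seen at 223730_at (0.00, 95% interval -0.20 to 0.20).

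GPC1, a glypican of epithelial and many cancer cells, showed a smaller rise at 1 of 2 probe sets. At 202756_s_at it read 8.49, 8.45, 8.52 and 8.39 in sibcat/siTAZ cells, against 7.91, 8.10, 8.11 and 8.34 in sibcat cells, a rise of 0.35 ± 0.07 (adjusted p = 0.0006). In siAPC/siTAZ cells it read 8.17, 8.22, 8.28 and 8.12, against 7.93, 8.02, 7.97 and 8.03 in siAPC cells, at 0.21 ± 0.07 (adjusted p = 0.02), a call lost without siAPC replicate A (adjusted p = 0.059) or siAPC/siTAZ replicate C (adjusted p = 0.067). The dimmer 202755_s_at gave -0.17 and -0.11 in these comparisons, neither called, so the probe sets disagree in sign. GPC4 was lower against siGFP at 204984_at, which averaged 6.30 ± 0.12 in siAPC/siTAZ and 6.34 ± 0.06 in sibcat cells against 6.52 ± 0.05 in siGFP cells (SD, n = 4). The first of these differences was called at -0.23 ± 0.07 (adjusted p = 0.0088) and the second at -0.19 ± 0.07 (adjusted p = 0.041), with no call at 204983_s_at. The second call was lost without siGFP replicate A, B or C, siAPC replicate D, or sibcat replicate A, C or D (adjusted p between 0.05 and 0.11).

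GPC3, an oncofetal glypican of liver and placenta, had group means of 4.27 to 4.35 at 209220_at and 3.21 to 3.43 at 243243_at, all below the array medians. Its groups overlapped in all comparisons, and at 209220_at the difference of siAPC from siGFP had a 95% interval of -0.24 to 0.10. The glypicans outside the list, GPC2 and GPC5, were also dim. GPC2 was 0.32 ± 0.12 higher in siAPC than in siGFP cells (adjusted p = 0.041) and GPC5 averaged 2.48 in siAPC and 2.83 in siGFP cells, a called change of -0.35 ± 0.10 (adjusted p = 0.012) with overlapping arrays.

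Serglycin had the largest range of the members. Its changes were among the known results when the members were chosen, so its values are given as a description without p-values. At 201859_at SRGN read 11.09, 11.09, 11.10 and 11.05 in siAPC cells and 10.78, 10.76, 10.51 and 10.64 in sibcat cells, against 6.76, 6.79, 6.92 and 6.79 in siGFP cells. In siAPC/siTAZ cells it read 4.26, 4.42, 4.58 and 4.69, and in sibcat/siTAZ cells 6.58, 6.79, 6.88 and 6.88. The order was siAPC, sibcat, siGFP with sibcat/siTAZ, and siAPC/siTAZ, and of neighbours in it only siGFP and sibcat/siTAZ overlapped, at a difference of -0.03 (sibcat/siTAZ minus siGFP, 95% interval -0.21 to 0.14).

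The log2 change of SRGN with TAZ siRNA was -6.60 ± 0.08 in the APC background and -3.89 ± 0.08 in the beta-catenin background, and -2.33 ± 0.08 for siAPC/siTAZ against siGFP. The siAPC/siTAZ level of 4.49 lay below the array medians, where a fall can be understated. Probe set 201858_s_at followed closely, at 4.26 and 3.83 for the depletions and -5.74 and -3.71 for TAZ siRNA. The third SRGN probe set, 1554676_at, read 2.27 to 2.66 on all arrays, well under the array medians, and its change after sibcat of -0.28 ± 0.05 ran against the others.

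SRGN is a common marker of blood cells and endothelium, so the markers of those cells are given beside it. Of the leukocyte markers 5 of 7 were measured, and their mean log2 level was 4.05 to 4.24 in siAPC, 4.68 to 4.73 in sibcat and 4.96 to 5.02 in siGFP cells, against 4.28 to 4.40 in siAPC/siTAZ and 4.67 to 4.88 in sibcat/siTAZ cells. None of the 5 was called higher after either depletion, and 3 were called lower after siAPC and 2 after sibcat. Of all genes 20% and 19.9% were called higher there and 17.4% and 14.3% lower. With TAZ siRNA 2 were called higher in the APC background, and 1 higher and 1 lower in the beta-catenin background. Of all genes 19.9% and 16.3% were called higher in these backgrounds and 21.7% and 12.5% lower. PTPRC, which defines leukocytes, averaged 2.67 to 2.73 in all groups. The 5 endothelial markers averaged 4.04 to 4.22 in siAPC, 4.32 to 4.50 in sibcat and 4.51 to 4.86 in siGFP cells, and none was called higher after either depletion. Of them 2 were called lower after siAPC and 1 after sibcat, and with TAZ siRNA 1 was called higher in the APC background. The 5 fibroblast markers averaged 7.01 to 7.10 in siAPC/siTAZ, 6.20 to 6.22 in siAPC, 6.82 to 6.96 in sibcat/siTAZ, 6.31 to 6.37 in sibcat and 6.53 to 6.70 in siGFP cells. COL1A1 and DCN among them lay above the array medians in siGFP cells, and LUM and PDGFRA were under 4. After siAPC and after sibcat 2 of the 5 were called lower and 0 higher. With TAZ siRNA 3 were called higher in the APC background (changes up to 2.68) and 2 in the beta-catenin background (up to 1.83), with 0 lower. The part of the fibroblast markers in the TAZ siRNA results of GPC6 and SDC2 was not tested. The 6 mammary epithelial markers averaged 10.83 to 10.90 in siAPC/siTAZ, 11.39 to 11.42 in siAPC, 10.87 to 10.91 in sibcat/siTAZ, 11.11 to 11.32 in sibcat and 11.51 to 11.56 in siGFP cells, and they did not move one way. After siAPC and after sibcat 4 of the 6 were called lower and 2 (KRT8 and KRT18) higher against siGFP, where 37.4% and 34.2% of all genes were called. With TAZ siRNA 4 were called lower and 1 (KRT5) higher in each background, where 41.6% and 28.8% were. Their part in the results of the members was not tested. In bulk RNA, fewer cells of a type and less RNA per cell cannot be told apart.

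Counted over all 19 probe sets, 8 were called after siAPC against siGFP (5 higher, 3 lower), where 30.2% of all probe sets were called (15.6% higher, 14.6% lower). After sibcat against siGFP 11 were called (6 higher, 5 lower), where 26% of all were (14.6% higher, 11.4% lower). With TAZ siRNA in the APC background 11 were called (5 higher, 6 lower), where 35.5% of all were (19.1% higher, 16.4% lower). In the beta-catenin background 11 were called (8 higher, 3 lower), where 22.6% of all were (12.7% higher, 9.9% lower). Against siGFP, siAPC/siTAZ had 12 called (4 higher, 8 lower), where 38.7% of all were (20.6% higher, 18.1% lower), and sibcat/siTAZ had 12 (7 higher, 5 lower), where 35% of all were (19.7% higher, 15.3% lower). Between siAPC and sibcat cells 5 were called (3 higher, 2 lower), where 24.9% of all were (11.9% higher, 13% lower). The TAZ siRNA effect differed between backgrounds for 8 (1 higher, 7 lower in the APC background), where 18.7% of all did (9.46% higher, 9.23% lower). These counts include the SRGN probe sets, whose changes were known beforehand, and support nothing on their own. The median change of the members was -0.06 after siAPC and 0.05 after sibcat, against -0.01 and 0.00 over all probe sets, since rises and falls both occurred.

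Probe sets of 1 gene agreed to differing degrees over the 20 arrays, which share their group effects and are given as a description. The correlation was 0.966 for SDC1, 0.994 between the brighter SRGN probe sets, 0.84 for GPC6 and 0.528 to 0.84 for SDC2, and -0.263 to 0.187 for SDC3, GPC1, GPC3 and GPC4. Opposite calls in the same comparison arose in SRGN and SDC2 only. By correlation over the 20 arrays, the genes most like SRGN were the aldehyde oxidase AOX1 (r = 0.995), asparagine synthetase ASNS (r = 0.995) and FGF2 (r = 0.992), a ligand that binds heparan sulfate. Those most like SDC2 at 212158_at were POLR3G (r = 0.987), CEP55 (r = 0.977) and ENOPH1 (r = 0.974).

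The genes that build the sugar chains were called about as often as other genes after siAPC, at 6 of 15. Of the 15 chain synthesis genes, counted at their brightest probe set, 4 rose and 2 fell after siAPC and 7 rose and 1 fell after sibcat, where 37.4% (20% higher, 17.4% lower) and 34.2% (19.9% higher, 14.3% lower) of genes were called. EXT1, the heparan sulfate polymerase subunit, rose by 0.59 ± 0.04 (siAPC) and 0.80 ± 0.04 (sibcat), and CSGALNACT1, which starts chondroitin sulfate chains, changed by -1.02 ± 0.05 and -0.42 ± 0.05. CHSY1, a chondroitin sulfate synthase, rose by 0.42 ± 0.04 after siAPC, and B3GAT3, which completes the linker between core protein and chain, by 0.47 ± 0.09 after sibcat. With TAZ siRNA 6 rose and 3 fell in the APC background (41.6% of genes called, 19.9% higher and 21.7% lower) and 8 rose and 0 fell in the beta-catenin background (28.8%, 16.3% higher and 12.5% lower). CSGALNACT1 had the largest called change of the list in both, at 0.80 and 0.72, and EXTL2 rose by 0.62 and 0.51 and EXTL3 by 0.54 and 0.55.

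Of 20 measured sulfation and editing genes, 9 rose and 4 fell after siAPC (37.4% of all genes called), and 6 rose and 3 fell after sibcat (34.2%). PAPSS2, which makes the sulfate donor, averaged 9.32 in siAPC and 8.71 in sibcat cells, against 6.53 in siGFP cells, changes of 2.79 ± 0.07 and 2.18 ± 0.07 (adjusted p = 3.8e-17 and 3.3e-15). SULF1, which removes 6-O-sulfates, averaged 7.81 in siAPC and 7.33 in sibcat cells, against 5.20 in siGFP cells. The sulfotransferases HS3ST3B1 (1.69 ± 0.07 after siAPC) and HS3ST3A1 (1.09 ± 0.05 after sibcat) rose too.

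With TAZ siRNA added, PAPSS2 changed by -2.52 ± 0.07 in the APC and -2.75 ± 0.07 in the beta-catenin background. SULF1 changed by -1.47 ± 0.10 and -1.23 ± 0.10, while SULF2, the other extracellular sulfatase, rose by 1.22 ± 0.04 and 0.88 ± 0.04. The parts of TAZ siRNA and of the deeper APC or beta-catenin knockdown in these changes cannot be told apart. In all, 8 of the measured sulfation and editing genes rose and 5 fell with TAZ siRNA in the APC background (41.6% of all genes called). In the beta-catenin background 8 rose and 4 fell (28.8%). The TAZ siRNA effect differed between backgrounds for SULF2 (0.34 ± 0.06, adjusted p = 0.00036) and was not called to differ for PAPSS2 (adjusted p = 0.12) or SULF1 (adjusted p = 0.28).

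**Figure D4:**
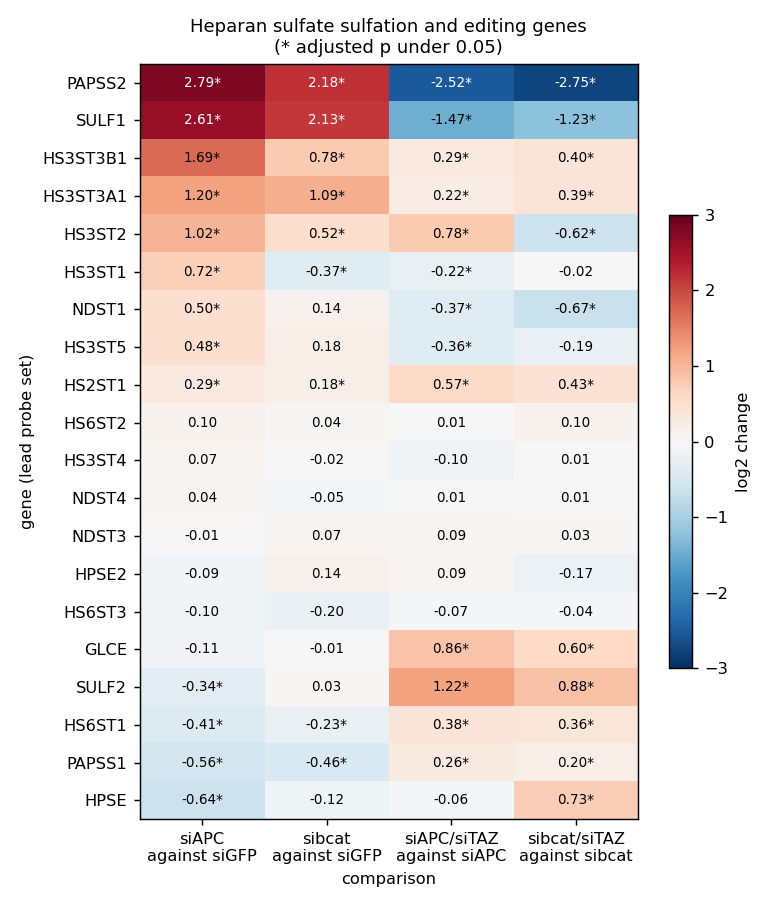
Log2 change of the 20 measured heparan sulfate sulfation and editing genes (rows, ordered by the first column) in 4 comparisons (columns); a star marks an adjusted p under 0.05 and colour the log2 change from -3 to 3. PAPSS2 and SULF1 are positive in the first 2 columns and negative in the last 2, SULF2 is positive in the last 2, and 7 genes carry no star after siAPC.

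The other lists are set against the same shares of all genes called, 37.4% after siAPC, 34.2% after sibcat, and 41.6% and 28.8% with TAZ siRNA in the APC and beta-catenin backgrounds, and nothing particular is read from them. Of 6 other carriers of heparan or chondroitin sulfate, 2 rose and 4 fell after siAPC, led by the fall of COL18A1 (-0.73 ± 0.14), which encodes a basement membrane collagen, and 1 rose and 2 fell after sibcat, led by betaglycan TGFBR3 (0.56 ± 0.04). NRP1, a receptor for semaphorins and VEGF, changed by -0.68 ± 0.05 and -0.23 ± 0.05 after siAPC and sibcat. With TAZ siRNA 3 rose and 1 fell in the APC background and 2 rose and 1 fell in the beta-catenin background, with COL18A1 at 0.93 and 1.10 and TGFBR3 at -0.53 and -0.15. HSPG2, which encodes perlecan, rose by 0.50 ± 0.08 in the APC background and NRP1 by 0.59 ± 0.05 in the beta-catenin background. Of 10 syndecan partners, sheddases and release enzymes measured, 2 rose and 5 fell after siAPC and 1 rose and 3 fell after sibcat, the 4 called after sibcat being close to the share of all genes. MMP7, a protease that sheds syndecan 1 in mouse lung, changed by -2.66 ± 0.08 and -3.20 ± 0.08, and CASK, a scaffold that binds syndecan tails, by -0.76 ± 0.04 and -0.33 ± 0.04. The gelatinase MMP9 changed by -0.45 ± 0.08 after siAPC and the membrane-type protease MMP14 by 0.23 ± 0.06 after sibcat. With TAZ siRNA 5 rose and 1 fell in each background. MMP7 rose by 1.03 in the APC background, and TIAM1, a Rac activator that binds syndecans, by 0.82 and 0.46. MMP14 rose by 0.55 ± 0.06 and 0.42 ± 0.06 with TAZ siRNA, and CASK by 0.42 ± 0.04 in the beta-catenin background. Of 7 ligands and receptors that bind heparan sulfate, 3 rose and 2 fell after siAPC, 2 rose and 3 fell after sibcat, 2 rose and 4 fell with TAZ siRNA in the APC background and 1 rose and 2 fell in the beta-catenin background. FGF2 averaged 6.32 in siAPC/siTAZ, 8.21 in siAPC, 6.99 in sibcat/siTAZ, 8.01 in sibcat and 7.05 in siGFP cells. HBEGF, an EGF receptor ligand, changed by -0.64 ± 0.07 after siAPC and -0.56 ± 0.07 after sibcat, and VEGFA by -0.63 ± 0.06 and -0.72 ± 0.06. The heparin-binding growth factor PTN rose by 1.94 ± 0.07 and 1.29 ± 0.07 with TAZ siRNA, and VEGFA then changed by -1.12 ± 0.06 and -0.77 ± 0.06.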

How the data were processed

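Affymetrix expression arrays were hybridised with biotin-labelled cRNA, 1 array per sample, per the labels' protocols. The deposited values are log2 signals that the authors made with RMA, a method named in the submitters' processing notes; the log2 scale was read off the values, and no RMA version or scan batch is known here. Of 54675 probe sets, 62 control probe sets were left out. Symbols came from the platform table (41097 probe sets with 1 symbol, 1801 with several, 11777 with none) and were updated by Entrez ID for 41043. No filter on low values was applied, and all 19 member probe sets were tested.

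Means of the 5 groups were fitted over the 20 arrays with limma 3.58.1 in R 4.3.3 (15 residual degrees of freedom, empirical Bayes prior 4.14, two-sided), with Benjamini-Hochberg adjustment over 54613 probe sets in each of 8 comparisons. The fit was tested on simulated data. A gene's lead probe set is the one with the highest mean over the 20 arrays (19775 genes). All 9 members were named, and for each list up to 3 called genes with the largest change in each of 4 comparisons; genes most like a member are the 3 with the highest Pearson correlation, for members whose group means differ by 1 or more. The members and lists were chosen with earlier results of these data known. Alternatives were a gene-level fit, a filter on low signals, an intensity trend, median centring, the groups of a comparison alone, the replicate block, a fold threshold and leaving out each array. No arrays were identical, and arrays with the same letter did not deviate together (median residual correlation 0.0229).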

Additional observations from a re-analysis of the deposited data

Results flagged for a closer look

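Among 95 groups of 4 arrays (19 probe sets in 5 groups), an array stood far from the other 3 in 2 cases, where chance flags about 1 in 20. SDC3 (202898_at) read 7.60 on sibcat/siTAZ replicate D against 7.44 to 7.45 on the others, and SRGN (1554676_at) read 2.66 on siAPC replicate B against 2.46 to 2.49.

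The effect of TAZ siRNA differed between the APC and beta-catenin backgrounds at 6 of 16 syndecan and glypican probe sets, where 18.7% of all probe sets were called. The test was of the difference itself (log2 change in the APC background minus that in the beta-catenin background). The difference was -2.73, -1.21 and -0.80 for SDC2 (212158_at, 212154_at and 212157_at), where the lead probe set fell in 1 background and rose in the other. It was -0.24 and -0.23 for SDC1 (201287_s_at and 201286_at), which rose in both, and 0.25 for GPC6 (227059_at), which also rose in both. For SRGN (201859_at and 201858_s_at), whose changes were known when the members were chosen, the differences of -2.71 and -2.03 are given as a description, with no test; its level was lower with TAZ siRNA in both backgrounds.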

How the results depend on the processing

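The counts of member probe sets called in the 8 comparisons stayed within 1.5 times of those reported under the filter on low signals, the intensity trend, median centring, the groups of a comparison alone, the replicate block and the leaving out of each array, and no change that was called under either setting reversed. At gene level with the brightest probe set, 5, 6, 6, 7, 7, 7, 2 and 4 of 9 genes were called for siAPC, sibcat, TAZ siRNA in each background, siAPC/siTAZ and sibcat/siTAZ against siGFP, siAPC against sibcat, and the difference between backgrounds; with the mean of a gene's probe sets, 4, 6, 5, 5, 5, 7, 3 and 3. These counts are lower because 9 genes replace 19 probe sets. In the main fit 37.4%, 34.2%, 41.6% and 28.8% of the lead probe sets of all genes were called in the first 4 of these comparisons. For the last 4, that fit called 38.7%, 35%, 24.9% and 18.7% of all probe sets. None of the counts in this paragraph is read as a response of the family. With a log2 change of at least 1, which SRGN and SDC2 alone reached, 2, 2, 3, 2, 3, 2, 0 and 4 probe sets were called. Of all probe sets 2.54%, 1.53%, 3.28%, 1.53%, 4.18%, 2.52%, 1.12% and 1.22% were. The 0 is limma's count for siAPC against sibcat, where no member changed by 1 and an unadjusted p under 0.05 also gives 0. As a paired analysis, the replicate block gave 8, 10, 11, 11, 11, 11, 5 and 8 member probe sets called. Without the block, 30.2%, 26%, 35.5%, 22.6%, 38.7%, 35%, 24.9% and 18.7% of all probe sets were called in these comparisons. The correlation of same-letter residuals had a median of 0.0229, and 8 of 20 arrays matched their own letter best. The calls for GPC4 in sibcat (adjusted p = 0.041) and sibcat/siTAZ, for SDC3 in siAPC/siTAZ against siGFP, and for the GPC6 difference between backgrounds lay near the threshold and were lost under several settings, the GPC6 one at adjusted p = 0.087 after median centring. SDC3 in siAPC against siGFP became called without sibcat replicate D (adjusted p = 0.011) and in 6 other settings. With the mean of all probe sets GPC1 was not called for TAZ siRNA (0.05 and 0.09). Dim probe sets (GPC3, 1554864_a_at, 1554676_at) limit what can be seen for their genes.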

Other observations

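HS3ST2, a heparan sulfate 3-O-sulfotransferase outside the genes named by rule and chosen after its values were seen, was another gene of the pathway whose response to TAZ siRNA changed sign with the background. Its lead probe set averaged 6.70 in siAPC/siTAZ and 5.92 in siAPC cells, a rise of 0.78 ± 0.13, and 4.80 in sibcat/siTAZ and 5.42 in sibcat cells, a change of -0.62 ± 0.13, against 4.90 in siGFP cells. The sibcat/siTAZ and siGFP levels of HS3ST2 lay below the array medians, which limits the reading of its fall. The difference between the effects was 1.40 ± 0.18 (limma adjusted p = 7.6e-06), opposite in sign to that of SDC2. The heparan sulfate cleaving enzyme HPSE, also chosen after its values were seen, rose with TAZ siRNA in the beta-catenin background (0.73 ± 0.07) and was not called in the APC background (-0.06 ± 0.07), a difference of -0.79 ± 0.10 (limma adjusted p = 4.3e-06).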
